A study of Mus with 2 samples.

Results

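The spots richest in the CT26 tumor-cell transcripts Rpl39l and Baiap2l1 were examined in 2 mouse tumors, a control and a tumor of an animal treated with recombinant mouse IL7 (rIL7), each sectioned once. They are called marker-high spots here, and the poorest spots of the same section are called marker-low spots. Spots were chosen by a measured value: within each section they were ordered by the summed level of both genes in counts per 1000000 UMIs (CPM, where a UMI is a tag that lets each captured RNA molecule be counted once), and the top 10% and the bottom 10% were kept. This gave 221 marker-high spots of 2219 in the control section and 195 of 1950 in the rIL7 section, or 416 of 4169 spots, with equal numbers of marker-low spots. The label "tumor-cell dense" could not be checked against most epithelial genes, which were nearly undetected. In the control section neither marker was detectably higher in spots chosen by the other, as given below, so the spots keep the name of their rule.

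Both tumors grew from 200000 CT26 cells, a colon carcinoma line of Balb/c origin, placed under the skin of Balb/c mice labelled as 6 to 8 weeks old. The treated mouse received 10 µg of rIL7 into the abdominal cavity on days 11 and 13 after transplantation, the control received PBS, and both tumors were taken on day 15. Frozen sections of 10 µm were laid on Visium slides, which capture RNA on a grid of barcoded spots, each covering several cells that can be of different kinds. Each group is 1 section of 1 tumor, so no test could be run, no p-value is given, and all intervals are exact 95% intervals for counting error only. Tumors of a transplanted line hold host cells as well, and each section includes tissue at its rim.

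Tumor-cell markers, immune genes and stromal genes compete for the same reads in a spot, because a level in CPM is a share of all RNA captured there. Rpl39l encodes a ribosomal protein closely related to the ubiquitous Rpl39, and Baiap2l1 encodes a protein that bends membranes and links them to actin. Antigen-presenting cells such as macrophages carry MHC class II on their surface to display peptides to CD4 T cells, and interferon makes many cell types switch on antiviral genes and chemokines that attract T cells.

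Rpl39l lies on chromosome 16 (10170197 to 10174911) and Baiap2l1 on chromosome 5 (144264525 to 144358112) of GRCm38. In the control section the pooled marker level was 2055 CPM in marker-high spots, 612 CPM in marker-low spots and 1293 CPM over all spots. For rIL7 the corresponding levels were 1685, 424 and 1043 CPM. Rpl39l was at 662 CPM in marker-high and 214 CPM in marker-low spots of the control section, and at 579 and 165 CPM in those of the rIL7 section. Baiap2l1, the more abundant marker, was at 1393 and 398 CPM in the control and at 1105 and 258 CPM in the rIL7 section. These values follow from the choice of spots and are given as a description. The last control spot inside the top group had 1840 CPM and the first outside it 1837 CPM, and at the bottom the pair was 778.5 and 778.6 CPM. The rIL7 pairs were 1493.2 and 1493.1 CPM at the top, and 546.0 and 546.3 CPM at the bottom, so each limit cut through a continuous range.

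**Figure D1:**
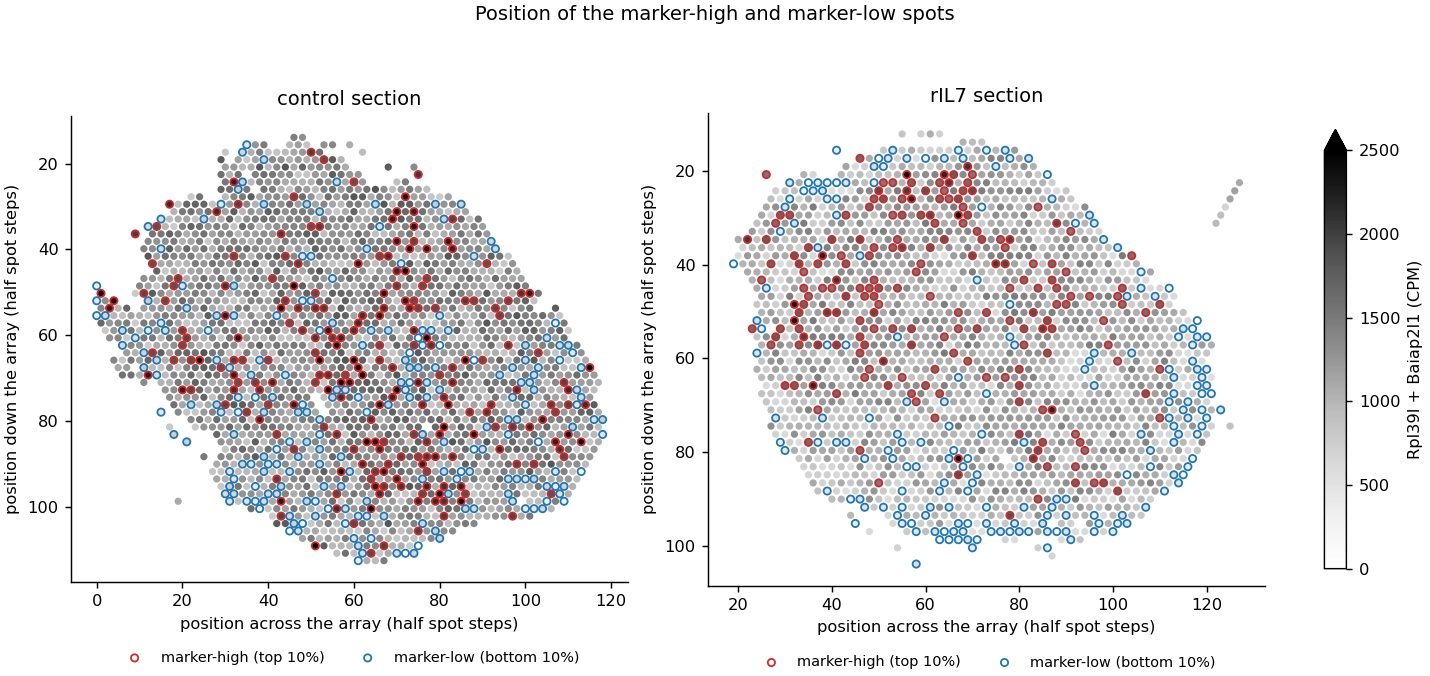
Positions of the kept spots on the capture grid (array column and row) in the control and rIL7 sections, shaded by summed Rpl39l and Baiap2l1 level in CPM, with the 221 and 195 marker-high spots in red and the equal numbers of marker-low spots in blue. Marker-low spots lie within 2 grid steps of the outline more often than marker-high spots in both sections. The shares are 27.5% and 11.4% in the control, and 55.0% and 3.61% in the rIL7 section.

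The choice rested on few molecules per spot. The median marker-high spot held 18 control or 21 rIL7 UMIs of both genes, and the median marker-low spot held 5 and 4. Marker UMIs were at 0 in 9 control and 6 rIL7 marker-low spots. The spread of marker UMIs over spots, relative to what counting alone gives at each spot's depth (index of dispersion, which is 1 for counting alone), was 1.20 for the control and 1.53 for the rIL7 section. Counting alone thus made up all but 16.5% of that variance in the control section and all but 34.8% in the rIL7 section. Marker-high spots were also deeper than marker-low spots. Median depths were 8754 against 7891 UMIs in the control and 12935 against 9884 UMIs in the rIL7 section. Over all spots the medians were 9623 UMIs in the control and 12921.5 UMIs in the rIL7 section. Both control ends were thus shallower than their section. At 5000 UMIs per spot the median numbers of genes were 2597 and 2598 in the control and 2567 and 2594.5 in the rIL7 section, after leaving out 18 and 37 shallower spots and 4 and 17. Unthinned medians were 3752 and 3489 genes in the control and 4656 and 4043 genes in the rIL7 section.

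When spots were ordered by 1 marker, the other marker served as a measure that the choice had not used. In the control section, spots chosen by Rpl39l had 876 CPM of Baiap2l1 at the top and 889 CPM at the bottom, a ratio of 0.985 (0.921 to 1.05). Spots chosen by Baiap2l1 had 426 and 413 CPM of Rpl39l there, a ratio of 1.03 (0.934 to 1.14). Neither marker in the control section therefore differed detectably between the ends defined by the other. Counting alone made up all but 9.82% of the variance of Rpl39l UMIs over control spots and all but 18.8% of that of Baiap2l1. Ends chosen by 1 marker, above all by Rpl39l, thus rested largely on counting error, which limits what a ratio near 1 can show. The rIL7 ratios were 1.09 (1.02 to 1.18) for Baiap2l1 and 1.20 (1.08 to 1.32) for Rpl39l. Both intervals lay above 1, with levels of 703 and 643 CPM for Baiap2l1 and 381 and 318 CPM for Rpl39l.

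Neighboring tissue gave a further measure, taken from the spots that touch a given spot and not from the spot itself. When spots were ordered by the marker level of their neighbors alone, Baiap2l1 was at 949 CPM at the top and 710 CPM at the bottom of the control section, whereas Rpl39l was at 441 and 444 CPM. In the rIL7 section both genes were higher at the top, Baiap2l1 at 820 against 413 CPM and Rpl39l at 433 against 295 CPM. Rpl39 is a close paralog of Rpl39l, so counts of both are uncertain where reads could be assigned to either. Rpl39 was at 1726 and 1710 CPM in marker-high and marker-low control spots and at 2078 and 1986 CPM in the rIL7 section. Spots chosen by Rpl39l alone had 1.13 times (1.08 to 1.19) and 1.11 times (1.06 to 1.15) as much Rpl39 at the top as at the bottom.

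**Figure D2:**
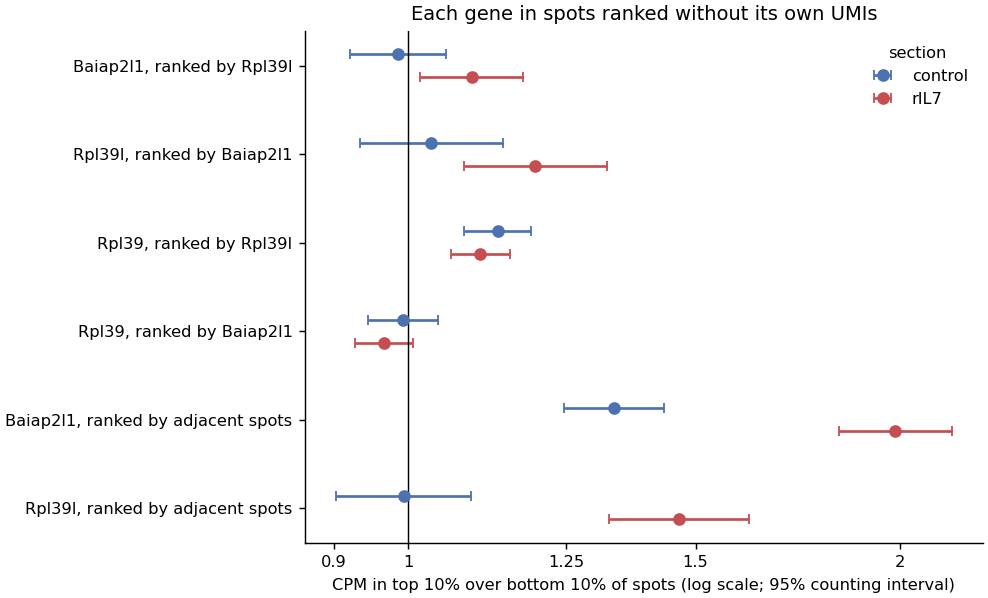
Ratio of top to bottom spots for Rpl39l, Baiap2l1 and Rpl39 when spots were ordered by the other gene or by adjacent spots, in both sections, with exact 95% intervals for counting error. In the control section the ratio of each marker stayed near 1 when the other marker ordered the spots (0.985 and 1.03), and in the rIL7 section it was 1.09 and 1.20.

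Defining genes of epithelium were nearly undetected in both tumors. Epcam, a surface protein of epithelial cells, had 18 UMIs in the whole control section and 9 in the rIL7 section. The simple-epithelium keratins Krt8 and Krt18 had 4 and 3 UMIs in the control and 0 and 3 UMIs in the rIL7 section, and Cdh1 (E-cadherin) had 82 and 99. Of the 20 epithelial and carcinoma genes examined, 3 reached 20 UMIs over the marker-high and marker-low spots of the control section and 4 did so in the rIL7 section. Krt20, a keratin of intestinal lining, was the exception with 2272 and 1506 UMIs per section. Its level was 119 CPM in marker-high and 98.3 CPM in marker-low control spots, and 70.0 and 40.6 CPM in those of the rIL7 section, past the 1.5-fold limit used below. The few epithelial genes with enough UMIs had median log2 ratios of 0.36 (3 of 3 above 0) and 1.32 (3 of 4 above 0). The summed list was 1.18 times (0.996 to 1.41) as high in marker-high as in marker-low control spots and 1.31 times (1.08 to 1.59) as high in the rIL7 section. Genes of a mesenchymal state were abundant in both kinds of spot. Vim, an intermediate filament, was at 2492 and 2244 CPM in the control and at 2391 and 2026 CPM in the rIL7 section, and Fn1 (fibronectin) was at 697 and 519 CPM and at 1003 and 687 CPM.

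Marker-low spots were found at the tumor rim more often than marker-high spots, and this was most marked in the rIL7 section. There, 105 of 191 marker-low spots of the main piece of tissue (55.0%, 47.6 to 62.2%) lay within 2 grid steps of its outline, against 7 of 194 marker-high spots (3.61%, 1.46 to 7.29%) and 17.1% of all spots. Control shares were 60 of 218 (27.5%, 21.7 to 34.0%), 25 of 219 (11.4%, 7.53 to 16.4%) and 18.2%. Neighboring spots share tissue, so these intervals are too narrow as a measure of the tissue.

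By the rule, 10% of all spots were marker-high. Of the neighbor positions around marker-high spots, 11.8% (control) and 16.8% (rIL7) were marker-high. Around marker-low spots, 13.4% and 23.1% were marker-low. The largest connected patch of marker-high spots counted 7 control and 17 rIL7 spots, while 110 and 83 marker-high spots touched no other. Neighbors of marker-high spots had a mean marker level of 1319 CPM in the control section, close to 1233 CPM for neighbors of marker-low spots. The rIL7 levels were 1174 and 819 CPM, against 1028 CPM for neighbors of all spots. Away from marker-high rIL7 spots the level of the other spots went from 1085 CPM at 1 grid step to 896 CPM at 5 steps, and in the control section the levels at steps 1 to 5 were 1286, 1277, 1261, 1315 and 1173 CPM, the last over 21 spots. Of the rIL7 marker-high spots, 104 of 195 fell into 1 of its 4 quadrants, where 570 of all 1950 spots lay.

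All other genes were then compared between marker-high and marker-low spots of the same section. A gene counted as higher or lower if its ratio was at least 1.5 in either direction and its mean level over both kinds of spot was at least 50 CPM. In the control section 39 of 4154 genes at that level were higher in marker-high spots (0.939%) and 71 were lower (1.71%). In the rIL7 section 161 of 4139 genes were higher (3.89%) and 247 were lower (5.97%). With only the spots away from the rim ordered anew, the rIL7 counts were 28 and 85 and the control counts were 36 and 48. That order kept 86 of the 195 rIL7 and 158 of the 221 control marker-low spots. Its lowest rIL7 spots had 198 CPM of Rpl39l and 327 CPM of Baiap2l1, against 165 and 258 CPM over the whole section. A smaller rIL7 difference away from the rim thus also reflects a narrower marker range, and position and range cannot be told apart. Ordered by Rpl39l alone, the counts were 4 and 5 in the control and 4 and 74 in the rIL7 section, and ordered by Baiap2l1 alone they were 55 and 83, and 149 and 230. The 2-gene order thus gave counts near those of Baiap2l1 alone, which supplied most of the marker UMIs.

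Of the 3866 genes at that level in both sections, 16 were higher in marker-high spots of both (0.414%) and 46 were lower in both (1.19%). Among these 3866 genes, 35 (control) and 155 (rIL7) were higher in marker-high spots, and the 16 made up 45.7% and 10.3% of them. Likewise 61 and 168 were lower, of which the 46 made up 75.4% and 27.4%. The number of genes higher in 1 section and lower in the other was 0 in both senses. Across the 3866 genes the log2 ratios of both sections had a Pearson correlation of 0.556 and a Spearman correlation of 0.438, a description across genes, which are not independent replicates.

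**Figure D3:**
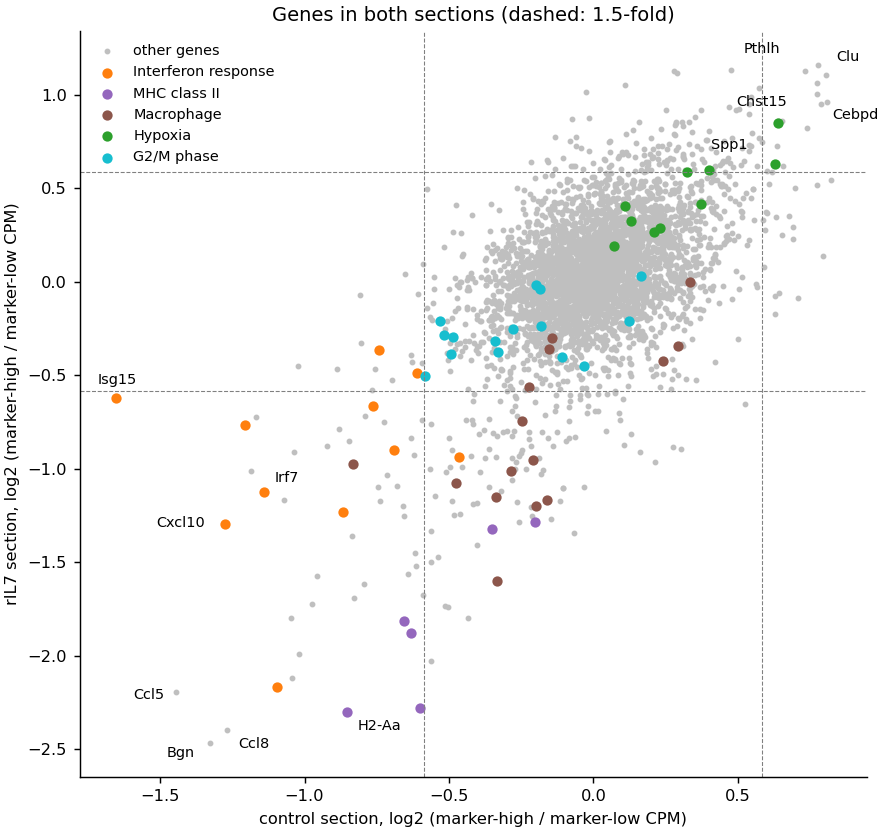
Log2 ratio of marker-high to marker-low spots for each gene in the control section (horizontal axis) and in the rIL7 section (vertical axis), over 3866 genes with a mean level of at least 50 CPM in both. The 16 genes higher and the 46 genes lower in both sections lie in the upper right and lower left, and none lie past the 1.5-fold limits in opposite directions.

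The genes higher in marker-high spots of both sections included Clu and Pthlh, which encode secreted proteins. Clu, which encodes the secreted chaperone clusterin, was at 476 CPM in marker-high and 272 CPM in marker-low control spots (1.75-fold, 1.56 to 1.95), and at 339 and 158 CPM in the rIL7 section (2.15-fold, 1.89 to 2.45). Pthlh, the parathyroid hormone-related protein that tumors can secrete, was at 335 and 202 CPM in the control (1.66-fold, 1.46 to 1.89) and at 183 and 83.7 CPM in the rIL7 section (2.18-fold, 1.83 to 2.62). The log2 ratio of Clu was above 0 in all 4 quadrants of each section, between 0.48 and 1.16 in the control and between 1.03 and 1.41 in the rIL7 section. Pthlh likewise ranged from 0.46 to 0.86 and from 0.43 to 1.60. Receptors were among the 16 as well. Osmr, the receptor subunit for oncostatin M, was at 129 and 82.6 CPM in the control and at 178 and 97.9 CPM in the rIL7 section, although 1 control quadrant had a log2 ratio of -0.05. Pdgfra, a receptor for platelet-derived growth factor found on mesenchymal cells, was at 234 and 151 CPM and at 257 and 155 CPM.

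The other genes of the 16 had varied roles. Cebpd, a transcription factor of the C/EBP family, was at 430 and 249 CPM in the control (1.73-fold, 1.54 to 1.94) and at 603 and 313 CPM in the rIL7 section (1.93-fold, 1.76 to 2.12). Nfil3, a leucine zipper repressor, was at 74.98 and 43.8 CPM and at 81.5 and 40.6 CPM. Chst15, which adds sulfate to chondroitin sulfate, came first of the 16 by the smaller of its section ratios, at 88.5 and 50.6 CPM in the control and 98.1 and 50.4 CPM in the rIL7 section. Cemip, which is needed for the breakdown of hyaluronan, was at 86.5 and 50.6 CPM and at 85.8 and 41.1 CPM. Map1lc3a, a marker of autophagosomes, was at 94.5 and 55.0 CPM and at 81.9 and 36.7 CPM, and Ankrd37, a target of hypoxia-inducible factor, at 106 and 68.0 CPM and at 123 and 68.0 CPM. The tetraspanin Tspan11 was at 200 and 120 CPM and at 174 and 98.3 CPM, and Fam43a at 106 and 67.4 CPM and at 73.6 and 40.6 CPM. The remaining 4 genes were Mmp19, Pdk1, Xdh and Casp6. Ordered by Rpl39l alone, control log2 ratios of Tspan11, Fam43a, Ankrd37, Osmr and Pdgfra were at or below 0, from -0.12 to -0.01.

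The genes lower in marker-high spots of both sections were led by chemokines and interferon-induced genes, and fewer cells of a type cannot be told apart from less RNA per cell in such spots. Ccl5, a chemokine of T and NK cells, was at 76.98 CPM in marker-high and 210 CPM in marker-low control spots (2.72-fold lower, 2.25 to 3.31), and at 141 and 643 CPM in the rIL7 section (4.57-fold lower, 4.06 to 5.15). Cxcl10, which draws activated T cells, was at 121 and 294 CPM in the control (2.42-fold lower, 2.07 to 2.83) and at 185 and 455 CPM in the rIL7 section (2.45-fold lower, 2.19 to 2.74). Its relative Cxcl9 was at 40.0 and 85.4 CPM and at 93.3 and 419 CPM, with control quadrants from -1.94 to 1.07 on the log2 scale, so the control difference did not hold in every quadrant. Ccl8, a chemokine for monocytes, was at 63.5 and 153 CPM in the control and at 329 and 1733 CPM in the rIL7 section (5.27-fold lower, 4.89 to 5.69). Irf7, the transcription factor that amplifies type I interferon production, was lower to a like degree in both sections, 2.21-fold (1.92 to 2.55) and 2.18-fold (1.89 to 2.52). Its levels were 148 and 327 CPM in the control, with quadrants from -1.38 to 0.02 on the log2 scale, and 121 and 264 CPM in the rIL7 section. The interferon-induced Ifi44 was at 59.5 and 135 CPM and at 61.7 and 124 CPM, and the noncoding interferon-responsive AW112010 at 71.5 and 148 CPM and at 117 and 409 CPM.

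Over the interferon response list, 12 of 13 genes at the required level were lower in marker-high control spots and 11 of 13 in marker-high rIL7 spots, and 0 were higher in either. Among all genes at that level 1.71% and 5.97% were lower. The median log2 ratio of the list's genes with at least 20 UMIs was -0.87 (control) and -0.90 (rIL7), against 0.0016 and 0.0039 over all 10663 and 11086 such genes. Its summed level was 1468 CPM in marker-high and 2838 CPM in marker-low control spots, and 1917 and 3613 CPM in the rIL7 section. Away from the rim the medians were -0.68 and -0.63, with 8 of 11 and 7 of 13 genes lower. Ordered by Rpl39l alone, the control median was -0.23 and 0 of 13 genes were lower.

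Genes of antigen presentation were lower in marker-high spots of both sections, and by more in the rIL7 section. H2-Aa, an MHC class II chain, was at 230 and 416 CPM in the control (1.81-fold lower, 1.61 to 2.03) and at 227 and 1122 CPM in the rIL7 section (4.93-fold lower, 4.50 to 5.41). H2-Eb1, a chain of another class II molecule, was at 258 and 392 CPM (1.52-fold lower, 1.35 to 1.70) and at 266 and 1294 CPM (4.86-fold lower, 4.46 to 5.30). Cd74, the invariant chain that guides class II molecules to their peptides, was at 1022 and 1609 CPM and at 1039 and 3648 CPM. Of the 6 MHC class II genes at the required level, 4 were lower in marker-high control spots and 6 in marker-high rIL7 spots, with list medians of -0.60 and -1.82. The shares lower over all genes at that level were 1.71% and 5.97%. Class II levels in marker-high spots of both sections were alike, and it was the marker-low spots that set the sections apart. Away from the rim the rIL7 median was -0.79 and the summed level was 2060 CPM in marker-high and 3605 CPM in marker-low spots, where the whole section had 2125 and 8074 CPM. The control sums were 1985 and 2963 CPM away from the rim and 2106 and 3285 CPM in all. When Rpl39l alone ordered the spots, the control median was -0.04 and 0 of 6 genes were lower. The rIL7 median was then -0.94, with 6 of 6 lower. The control difference was thus not seen in that order.

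Further genes among the 12 lowest of both sections were as follows. Cfb, a complement factor, was at 53.5 and 108 CPM in the control and at 53.4 and 212 CPM in the rIL7 section. Fcgr4, an activating Fc receptor of myeloid cells, was at 36.0 and 70.8 CPM and at 38.4 and 127 CPM, with control quadrants from -1.33 to 0.51 on the log2 scale. Ly6c1, a surface protein of endothelium and some leukocytes, was at 46.0 and 96.6 CPM and at 47.5 and 107 CPM.

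Macrophage genes were lower in marker-high spots mainly in the rIL7 section. Of 15 macrophage genes at the required level, 1 was lower in marker-high control spots, the Fc receptor Fcgr1, and 9 were lower in marker-high rIL7 spots, with medians of -0.20 and -0.99. For all genes at that level the shares lower were 1.71% and 5.97%. Apoe, a lipid carrier made by macrophages, was at 1023 and 1290 CPM in the control and at 1053 and 3187 CPM in the rIL7 section. Lyz2 (lysozyme) was at 1140 and 1273 CPM and at 1481 and 3326 CPM. C1qa, a complement subunit of tissue macrophages, was at 467 and 536 CPM and at 461 and 1061 CPM. Cd68, a lysosomal protein of macrophages, missed the 1.5-fold limit in both sections at 139 and 162 CPM and at 138 and 204 CPM. Pf4, a chemokine of platelets and macrophages, was at 132 and 139 CPM in the control, a ratio of 0.955 (0.800 to 1.14), and at 191 and 483 CPM in the rIL7 section (2.53-fold lower, 2.27 to 2.83). Il1b was at 124 and 151 CPM and at 135 and 219 CPM. Arg1, an arginase of alternatively activated macrophages, had 24 and 20 UMIs in the control ends and was at 70.4 and 68.0 CPM in the rIL7 section. Away from the rim the macrophage medians were -0.29 and -0.57.

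Spp1, which encodes osteopontin and is made by macrophages and tumor cells, went the other way. It was at 2470 and 1910 CPM in the control (1.29-fold higher, 1.24 to 1.35) and at 3387 and 2068 CPM in the rIL7 section (1.64-fold higher, 1.58 to 1.70).

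Lymphocyte genes were scarce in the control section. Of 14 T cell genes, 7 had at least 20 UMIs in the control ends and all 14 did in the rIL7 ends, with medians of -0.83 and -1.88. Their summed level was 180 CPM in marker-high and 250 CPM in marker-low control spots, and 276 and 854 CPM in the rIL7 section. Cd8a, the coreceptor of cytotoxic T cells, had 10 and 16 UMIs in the control and 27 and 99 UMIs in the rIL7 section, and Cd3e, part of the T cell receptor complex, had 0 and 11 UMIs and 19 and 73 UMIs. The cytotoxicity list had medians of -0.98 and -1.39. Within it, Gzmb (granzyme B) was at 24.0 and 24.1 CPM in the control and at 36.0 and 49.9 CPM in the rIL7 section. Il7r, the receptor chain for IL7, had 4 and 9 UMIs in the control ends and 17 and 25 UMIs in the rIL7 ends, with intervals of the ratio that included 1 in both. Away from the rim the T cell medians were -0.40 and -0.86, and the rIL7 sums were 273 and 412 CPM.

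Immunoglobulin transcripts were higher in marker-low than in marker-high rIL7 spots. Igkc, the kappa light chain, had 73 UMIs in marker-high and 768 UMIs in marker-low rIL7 spots, or 28.9 and 376 CPM, and 0 and 5 UMIs in the control ends. Ighm was at 14.2 and 89.1 CPM in the rIL7 section and Ighg2b at 16.2 and 189 CPM. Immunoglobulin genes are a multigene family whose reads can be shared, so single genes are uncertain. The summed level of the B and plasma cell list was 79.5 and 802 CPM in the rIL7 section, and 49.6 and 104 CPM away from the rim. With Rpl39l alone as the order, the rIL7 sums were 282 and 292 CPM and the median log2 ratio was 0.24.

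Stromal genes were mixed in the control section and mostly lower in marker-high spots of the rIL7 section. Bgn, a matrix proteoglycan, was lower in marker-high spots of both, at 36.5 and 91.6 CPM in the control (2.51-fold lower, 1.89 to 3.35) and at 41.9 and 231 CPM in the rIL7 section (5.52-fold lower, 4.46 to 6.88). Igfbp7, a secreted protein of vessel walls, was at 45.5 and 93.8 CPM and at 31.6 and 138 CPM. Col1a1 was at 164 and 252 CPM and at 151 and 413 CPM, whereas Col1a2, its partner in the same collagen, was at 855 and 810 CPM and at 808 and 925 CPM. The fibroblast and matrix list had medians of -0.03 and -0.67, with 1 of 11 control and 2 of 12 rIL7 genes higher and 2 and 4 lower. Of all genes at the required level, 0.939% and 3.89% were higher and 1.71% and 5.97% were lower. The fibroblast and matrix medians away from the rim were 0.09 and -0.01, with 0 higher in either and 1 of 11 and 0 of 10 lower. Pdgfra was higher in both and Dcn, the proteoglycan decorin, was higher in the rIL7 section at 376 and 242 CPM. The endothelial list had medians of -0.42 and -1.60, and -0.22 and -0.27 away from the rim. Basal keratinocyte keratins were seen in the control section, Krt5 at 12.5 and 58.4 CPM and Krt14 at 19.99 and 70.8 CPM, and both had 0 UMIs in the rIL7 ends. The part of rim tissue in these differences was not tested beyond the values given.

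**Figure D4:**
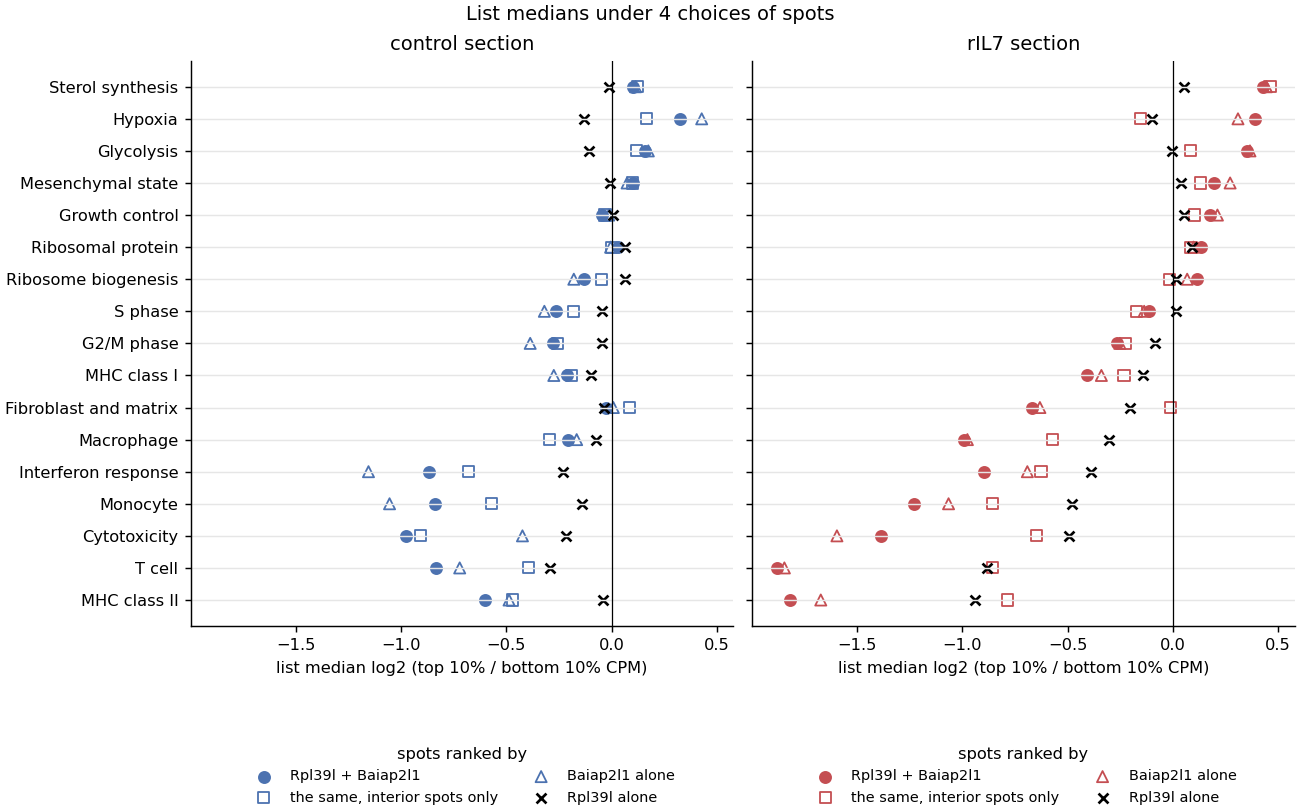
Median log2 ratio of marker-high to marker-low spots for gene lists in both sections under 4 ways of choosing spots: both genes, spots away from the rim only, Baiap2l1 alone and Rpl39l alone. MHC class II, T cell and macrophage lists lie far below 0 in the rIL7 section and less far once rim spots are left out (MHC class II -1.82 and -0.79), and most control medians lie near 0 when Rpl39l alone orders the spots. Leaving out rim spots also raised the marker level of the lowest rIL7 spots.

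Cell-cycle genes were slightly lower in marker-high spots. None of the 15 G2/M genes at the required level passed the 1.5-fold limit in either section, but 21 of 23 G2/M genes in the control and 20 of 23 in the rIL7 section had ratios below 1, with medians of -0.28 and -0.26. Mki67, a nuclear protein of dividing cells, was at 137 and 173 CPM in the control and at 142 and 185 CPM in the rIL7 section. Top2a, which untangles DNA before mitosis, was at 168 and 237 CPM and at 178 and 233 CPM. The summed G2/M level was 1674 and 2045 CPM and 1611 and 1967 CPM. S phase genes had medians of -0.27 and -0.12. In the order by Rpl39l alone, the medians were closer to no difference, at -0.04 and -0.08 for G2/M genes. Those of S phase genes were then -0.04 and 0.01.

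Hypoxia, glycolysis and sterol synthesis lists had medians above 0 in both sections. Of 10 hypoxia genes at the required level, 2 were higher in the control (Ankrd37 and Pdk1) and 4 in the rIL7 section (also Vegfa and Bnip3), with medians of 0.32 and 0.39. By comparison, 0.939% and 3.89% of all genes at that level were higher. Vegfa, the angiogenic growth factor, was at 94.98 and 75.8 CPM in the control and at 98.5 and 65.6 CPM in the rIL7 section. Away from the rim the control median was 0.16 and the rIL7 median was -0.15, so the rIL7 direction did not hold there. Glycolysis genes had medians of 0.16 and 0.35 and none of 12 passed the limit, with Ldha at 1831 and 1566 CPM and at 1832 and 1317 CPM. The glycolysis medians away from the rim were 0.12 and 0.08. Sterol synthesis genes had medians of 0.10 and 0.43. The rIL7 sterol median was 0.46 away from the rim. Nuclear genes of the respiratory chain had medians of -0.07 and -0.05, with 17 of 22 below 0 in each section. Mitochondrially encoded genes had medians of -0.04 and -0.52, and -0.02 in the rIL7 section away from the rim. Ribosomal protein genes, the largest list, had medians of 0.03 and 0.13 over 77 genes, with none past the limit. Other lists with rIL7 medians below 0 were MHC class I (-0.21 for the control and -0.41 for rIL7), immediate early genes (-0.03 and -0.31) and the IL-7 axis (0.11 and -0.49). Growth-control genes had medians of -0.05 and 0.18, and among them Hmga2, a chromatin protein of embryonic tissue and tumors, was at 186 and 194 CPM in the control and at 240 and 140 CPM in the rIL7 section (higher by the 1.5-fold limit there).

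Across all spots in 10 bins of rising marker level, Clu was at 271 CPM in the lowest and 476 CPM in the highest control bin, and at 158 and 339 CPM in the rIL7 section. The interferon response sum went from 2898 to 1468 CPM in the control and from 3613 to 1917 CPM in the rIL7 section. Hypoxia sums in the rIL7 section were 1050 CPM in the first bin, 1651 CPM in the second and 1421 CPM in the tenth. Glycolysis sums there were 9972, 12982 and 13299 CPM. In both lists the lowest rIL7 bin was below all others. From the first to the tenth control bin the hypoxia sum went from 1032 to 1267 CPM and the glycolysis sum from 11788 to 13050 CPM. MHC class II in the rIL7 section dropped steeply over the first 3 bins, from 8074 to 5037 to 3480 CPM, and then slowly to 2125 CPM. The share of rim spots in those 3 bins was 55.0%, 32.3% and 20.9%. Control MHC class II went from 3277 to 2106 CPM, with 3059 CPM in the seventh bin, so most of its decline lay in the upper bins.

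**Figure D5:**
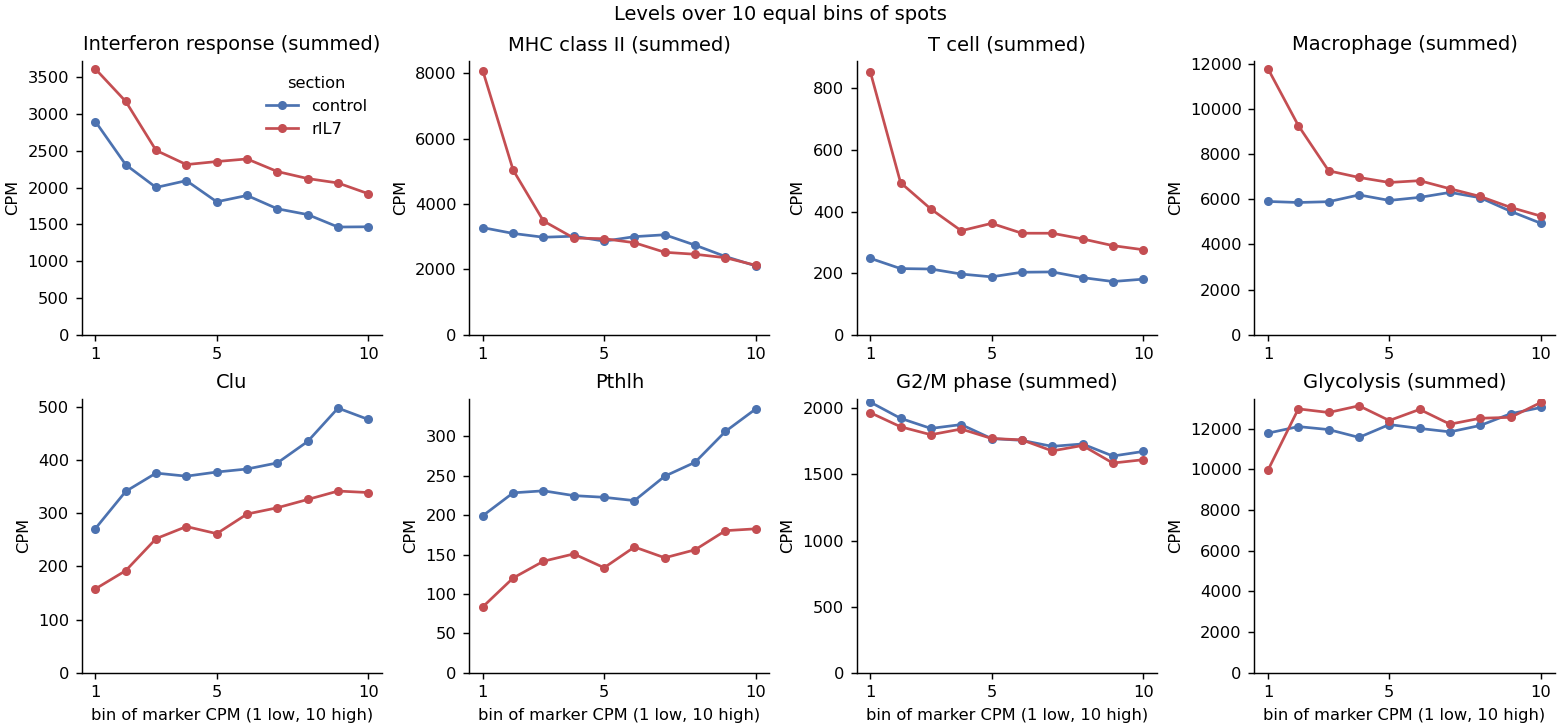
Levels in CPM of genes and list sums in 10 bins of spots from lowest to highest marker level, for the control and rIL7 sections, in 8 panels. MHC class II in the rIL7 section starts at 8074 CPM and reaches 2125 CPM, while the control line runs from 3277 to 2106 CPM and both meet at the high end.

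Spots in the top 10% of their section for an immune sum were counted at both marker ends, and over all spots that share is 10%. In the rIL7 section 0 of 195 marker-high spots were among the top 10% of spots for macrophage genes or for MHC class II genes (upper limit 1.87% each), and 5 (2.56%) were among those for T cell genes. Of the marker-low spots there, 82 (42.1%), 88 (45.1%) and 90 (46.2%) were among them. Control marker-high spots included 5 (2.26%), 10 (4.52%) and 17 (7.69%) of these, and the marker-low spots 21 (9.50%), 36 (16.3%) and 41 (18.6%). Levels in a spot are shares of 1 total and so are not independent of each other. Because neighboring spots share tissue, the upper limit counts spots only and is too low as a measure of the tissue.

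Genes whose ratio differed most between the sections were ordered by the rIL7 minus the control log2 ratio. The lowest were H2-Eb1 (-1.68), Selenop (-1.47), H2-Aa (-1.45), Il10ra (-1.37) and Pf4 (-1.27). Selenop, a plasma selenium carrier also made by macrophages, was at 51.0 and 75.3 CPM in the control and at 54.6 and 223 CPM in the rIL7 section. Il10ra, a receptor chain for IL10 on leukocytes, was at 47.0 and 63.5 CPM and at 37.97 and 132 CPM. The highest were Pmm1 (1.04), Isg15 (1.03), Esm1 (0.94), Hsf1 (0.94) and Iars2 (0.91). Isg15, an interferon-induced ubiquitin-like protein, was 3.15-fold lower (2.68 to 3.70) in marker-high control spots, at 105 and 332 CPM. Its rIL7 ratio was 1.54-fold lower (1.29 to 1.83), at 95.7 and 147 CPM. Pmm1, a phosphomannomutase, was at 100 and 102 CPM in the control and at 95.7 and 47.5 CPM in the rIL7 section. Hsf1, the heat shock transcription factor, was at 76.98 and 71.3 CPM and at 85.03 and 41.1 CPM. Esm1, a proteoglycan of endothelium, was at 79.5 and 83.7 CPM and at 107 and 58.7 CPM. With 1 section each, these differences have no replicate check.

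Set side by side, marker-high spots of both sections were closer to each other than marker-low spots were. Between marker-high spots, 67 of 4135 genes were at least 1.5-fold higher in the rIL7 section (1.62%) and 62 were lower (1.5%). Between marker-low spots, 226 of 4160 were higher in the rIL7 section (5.43%) and 166 were lower (3.99%). The MHC class II sum was 1.01 times (0.969 to 1.05) as high in marker-high rIL7 spots as in marker-high control spots, and 2.46 times (2.39 to 2.53) in marker-low spots. For macrophage genes these ratios were 1.06 (1.04 to 1.09) and 2.00 (1.95 to 2.05), and for T cell genes 1.53 (1.35 to 1.74) and 3.42 (3.08 to 3.80). The interferon response sums had ratios of 1.31 (1.247 to 1.37) and 1.27 (1.23 to 1.32), but its genes were mixed at the marker-low end. There the median log2 ratio of rIL7 to control was -0.02, with 8 of 15 genes higher and 3 lower, against 0.24, 7 of 12 and 0 at the marker-high end. Sterol synthesis genes were lower in the rIL7 section at both ends, with ratios of 0.689 (0.652 to 0.727) and 0.562 (0.526 to 0.600).

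Single genes varied in how far the sections differed at each end. Ccl8 was 5.18 times (4.29 to 6.29) as high in the rIL7 as in the control marker-high spots, and 11.3 times (10.0 to 12.9) as high in the marker-low spots. Arg1 was 5.87 times (3.82 to 9.40) and 6.05 times (3.77 to 10.2) as high. Cebpd was 1.40 times (1.29 to 1.53) and 1.26 times (1.11 to 1.42) as high, and Spp1 1.37 times (1.32 to 1.42) and 1.08 times (1.03 to 1.13). Pthlh was lower in the rIL7 section, at 0.546 times (0.483 to 0.615) and 0.415 times (0.344 to 0.499) the control, and so was Clu, at 0.711 (0.648 to 0.781) and 0.578 (0.501 to 0.667). H2-Aa was 0.989 times (0.873 to 1.12) as high in marker-high spots and 2.70 times (2.48 to 2.93) in marker-low spots. The share of rim spots among marker-low spots differed between the sections (27.5% and 55.0%), so treatment, animal, section and position cannot be told apart in these ratios.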

How the data were processed

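RNA of 2 tumor sections was measured by Visium, 1 section per group. The authors processed reads with Space Ranger 1.1.0 against mm10, and deposited unnormalized UMI counts of 32285 features in every spot. Positions and barcodes were used as deposited, and 1701 barcodes occur in both sections because they name positions of the same grid. Spots over tissue with more than 200 genes were kept (2219 of 2221 control and 1950 of 1951 rIL7 spots, with 22951678 and 25729233 UMIs). No spot reached the study's limit of 10% mitochondrial UMIs (highest 2.12% and 1.94%), and no doublet caller was run, since spots hold several cells.

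UMIs were summed over the spots of each end and divided by their total (CPM). Ratios carry exact conditional binomial (Clopper-Pearson) intervals at 95%, a gene without UMIs in an end was set to 3 UMIs, and 4 quadrants split at the median row and column describe spread. Adjacent spots touch on the grid, and rim spots lie within 2 steps of the outline of the main piece. Lists count genes past 1.5-fold at 50 CPM and give medians over genes with at least 20 UMIs. The members and all 36 lists were chosen with earlier results of these data known, and 1 list (5 patchily distributed genes) was named by them: its medians were -0.04 and -0.07. Named genes were both ordering genes, the 12 highest and 12 lowest past the limit in both sections by the smaller ratio, the 5 largest and 5 smallest section differences, 9 further genes (H2-Aa, H2-Eb1, Cd68, Pf4, Arg1, Spp1, Il1b, Il7r and Rpl39) and list members. Mmp19, Pdk1, Xdh and Casp6 were named because they complete a count.

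Coordinates come from RefSeq for GRCm38, matched by symbol (4376 of 4427 genes, and 42 of 42 named outside lists). The comparison was tested on pooled counts simulated with known changes between fixed ends. That simulation did not include the choice of spots by few marker UMIs or the tissue shared by neighboring spots, so it cannot measure their effect. Alternatives were 19 planned and 2 added after seeing the data: order by adjacent spots alone, and the 50 CPM level taken over all spots. Tools were Python 3.11.15, numpy 2.4.6, scipy 1.17.1, pandas 2.3.3, matplotlib 3.10.9 and R 4.3.3 with edgeR 4.0.16 and DESeq2 1.42.0, used for scaling factors only.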

Additional observations from a re-analysis of the deposited data

How the results depend on the processing

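No paired analysis was possible because each group is 1 section and no result comes from a test. Counts of genes past the limit are given in 1 order: higher and lower in marker-high control spots, higher and lower in marker-high rIL7 spots, then higher and lower in both sections (39, 71, 161, 247, 16 and 46 as reported). The ends taken as 5% of spots gave 133, 159, 306, 364, 46 and 76, and as 20% gave 4, 37, 50, 177, 4 and 28. Order by Rpl39l alone gave 4, 5, 4, 74, 0 and 1. Order with adjacent spots included gave 139, 165, 391, 381, 76 and 92, and by adjacent spots alone (added after seeing the data) 102, 115, 321, 325, 56 and 66. Marker-high spots against all other spots gave 0, 8, 0, 33, 0 and 4. A 2-fold limit gave 0, 23, 13, 119, 0 and 11. A level of 20 CPM gave 136, 219, 346, 606, 29 and 113, 100 CPM gave 10, 25, 65, 119, 7 and 17, and no minimum gave 1908, 2592, 2282, 3434, 395 and 1030. Spots away from the rim gave 36, 48, 28, 85, 5 and 21. Choosing within 10 depth bins gave 25 and 106 higher genes in the control and rIL7 sections, and thinning to 5000 UMIs gave 7 higher and 16 lower in both. Order by Baiap2l1 alone, TMM and median-of-ratios scaling, totals leaving out haemoglobin, mitochondrial and ribosomal protein genes, spots weighted equally, spots over 1000 genes and the level taken over all spots each kept every count within 1.5 times. With the rim taken as 1 step, 5.94% of control marker-high, 15.1% of control marker-low and 33.0% of rIL7 marker-low spots lay in it, and with 3 steps 40.4%, 62.8% and, for rIL7 marker-high spots, 7.73%.

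The rIL7 hypoxia median turned to -0.0149 with 20% ends, -0.10 by Rpl39l alone, -0.13 within depth bins, -0.033 against all other spots and -0.15 away from the rim. By Rpl39l alone the glycolysis medians turned to -0.11 (control) and -0.0038 (rIL7), and the rIL7 medians of B and plasma cell and neutrophil genes to 0.24 and 0.084. The control keratinocyte median turned to 0.74 against all other spots and 0.27 away from the rim. Control log2 ratios that turned by Rpl39l alone were Tspan11 (-0.10), Fam43a (-0.12), Ankrd37 (-0.048), Osmr (-0.040), Pdgfra (-0.0064), Ly6c1 (0.13), H2-Eb1 (0.043), Selenop (0.028) and Il10ra (0.056), and in the rIL7 section Isg15 (0.094) and Esm1 (-0.13). Control Selenop was at 0.16 by adjacent spots alone. Rpl39 in the rIL7 section was at -0.050 by Baiap2l1 alone, -0.018 with adjacent spots, -0.0026 against all other spots and -0.046 by adjacent spots alone. The causes were not tested. TMM and median-of-ratios scaling turned 0 of the 65 list medians and 0 of the 80 ratios of named genes. With medians of 4 to 21 marker UMIs per spot, counting error in the choice of spots limits every comparison.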

Other observations

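Lists that the report does not describe were compared in the same way, each with its control and then its rIL7 median log2 ratio of marker-high to marker-low spots. Monocyte genes had medians of -0.84 and -1.23, with 2 of 3 and 2 of 2 genes at level lower, where 1.71% and 5.97% of all genes were lower. Ly6c2, a surface protein of inflammatory monocytes, had 17 and 118 UMIs in the control ends and 33 and 127 UMIs in the rIL7 ends. NK cell genes had medians of -0.62 and -1.58, dendritic cell genes -0.17 and -1.49, inflammatory cytokines -0.29 and -1.18, and neutrophil genes -0.20 and -0.66. No gene of the NK cell or neutrophil list was past the limit in either section (0 NK cell genes were at the required level), nor was any control gene of the inflammatory cytokine list. The medians away from the rim were -0.38 and -1.09 for NK cell, -0.47 and -0.38 for dendritic cell, -0.39 and -0.93 for inflammatory cytokine and -0.54 and -1.11 for neutrophil genes. Some immune genes were past the limit in the rIL7 section by a wide margin, such as C3, the central complement component, at 31.5 and 66.3 CPM in the control and 123 and 694 CPM in the rIL7 section. Slpi, a protease inhibitor of secretions, was at 3.50 and 7.30 CPM and at 9.89 and 101 CPM. Both were chosen after their values were seen.

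Lists of general cell function were compared as well. ATF4 response genes had medians of -0.28 and -0.08, with 14 of 14 control genes below 0. Ribosome biogenesis genes had -0.13 and 0.11, protein folding genes -0.11 and 0.05, and partners of actin protrusion -0.08 and 0.08. Lists of surrounding tissue rested on few genes. Skeletal muscle had medians of -0.08 over 7 genes and -0.19 over 1 gene, keratinocytes -1.17 over 5 genes and 0.25 over 1 gene, and adipocytes -0.36 over 1 gene and -2.23 over 2 genes. Red blood cell genes never reached 20 UMIs, with summed levels of 0.4999 and 11.8 CPM in the control and 0.395 and 3.91 CPM in the rIL7 section.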
